A study of Mus musculus with 37 samples.

Results

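The genes described here carry the names of subunits of oxidative phosphorylation, the 5 protein complexes of the inner mitochondrial membrane that pass electrons to oxygen and make ATP. They were chosen by symbol alone, with no measured value: mt-Nd, mt-Co, mt-Cytb and mt-Atp genes of the mitochondrial genome, and nuclear genes named Nduf with a, b, c, s or v, Uqcr, Sdha to Sdhd, Cox4 to Cox8 with their isoforms, or Atp5. Assembly factors named Ndufaf and symbols ending in -ps were left out. The rule found 104 of 35885 genes in the table, 13 encoded by the mitochondrial genome and 91 by the nuclear genome. Of the 104, 48 belong to complex I, 4 to complex II, 9 to complex III, 24 to complex IV and 19 to complex V, the ATP synthase. By annotation 86 of the 91 nuclear members are protein coding, 4 are processed pseudogenes and 1 is neither. All of them are counted as members.

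Poly(A) RNA was sequenced in bulk from flushed femur marrow and from spleen of wild-type C57BL/6N mice. Stressed mice met 1 social defeat a day, a model in which a mouse is overpowered by an aggressive mouse, for 1, 4 or 10 days. A rested group was defeated 10 times and then left alone for 1 week, and controls were not defeated. Marrow gave 3 control libraries, 4 after 1 defeat, 3 after 4 defeats, 5 after 10 defeats and 4 rested. Spleen gave 4 controls, 2 after 1 defeat, 2 after 4 defeats, 6 after 10 defeats and 4 rested, 37 libraries in all. Libraries carry a code such as C1 or D6, and 15 codes occur in both organs. The sources used here do not say whether a shared code is 1 animal, and give neither age nor sex. Each library is a mixture of cells, so a lower value can come from fewer cells of a type or from less RNA per cell, and these cannot be told apart.

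Complex I takes electrons from NADH, complex II from succinate, complex III hands them to cytochrome c, complex IV reduces oxygen, and complex V turns the proton gradient built by complexes I, III and IV into ATP. The mitochondrial genome encodes subunits at the core of complexes I, III, IV and V and is transcribed as long precursors from both strands, which are cut into messengers. Every subunit of complex II and most subunits of the others come from nuclear genes, whose promoters are known to carry sites for NRF1, GABP (also called NRF-2), YY1 and the oestrogen-related receptors. Blood-forming tissue holds cells that differ widely in mitochondria: erythroblasts carry many and lose them as they become red cells, while mature neutrophils depend mostly on glycolysis.

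4 sites were searched on both strands of the 300 bases around the start of each gene, 250 before and 50 after. Promoters were those of RefSeq on GRCm38.p6, where 70 of the 91 nuclear members were matched by gene identifier or symbol. The letters CGCATGCG, the core of an NRF1 site, lay in 8 of the 70 (11.4%) against 1.91% of all promoters of the same length. The letters CCGGAAGT, a GABP site, lay in 5 of the 70 (7.14%) against 4.00% of all promoters of the same length. The letters AAGATGGCG, a YY1 site, lay in 6 of the 70 (8.57%) against 1.49% of all promoters of the same length. The letters TCAAGGTCA, a site of oestrogen-related receptors, lay in 2 of the 70 (2.86%) against 0.407% of all promoters of the same length. At least 1 of these sites lay in 20 of the 70 (28.6%) against 7.44% of the 27025 promoters. A match describes letters and is no evidence of binding. A promoter is shown for each site, of a member whose values are given further on, 5′ to 3′ on the gene's strand (the minus strand of the build for each of them), with the matched letters in capitals.
Cox6a1 (complex IV, NRF1 letters), chr5:115348909-115349208: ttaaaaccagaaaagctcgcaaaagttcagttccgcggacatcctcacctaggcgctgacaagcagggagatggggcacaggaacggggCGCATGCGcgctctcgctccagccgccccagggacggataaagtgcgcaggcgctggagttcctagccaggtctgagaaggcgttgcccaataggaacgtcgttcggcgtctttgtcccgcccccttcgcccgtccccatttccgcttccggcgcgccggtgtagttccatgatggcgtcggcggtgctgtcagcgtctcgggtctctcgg
Uqcrh (complex III, GABP letters read on the other strand), chr4:116075021-116075320: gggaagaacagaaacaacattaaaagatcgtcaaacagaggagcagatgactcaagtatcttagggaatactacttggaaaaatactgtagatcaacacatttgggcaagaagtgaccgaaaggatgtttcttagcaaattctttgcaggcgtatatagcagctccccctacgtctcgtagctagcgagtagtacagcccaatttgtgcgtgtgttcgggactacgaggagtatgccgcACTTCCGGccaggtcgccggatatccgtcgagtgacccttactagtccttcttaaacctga
Ndufs4 (complex I, YY1 letters), chr13:114388045-114388344: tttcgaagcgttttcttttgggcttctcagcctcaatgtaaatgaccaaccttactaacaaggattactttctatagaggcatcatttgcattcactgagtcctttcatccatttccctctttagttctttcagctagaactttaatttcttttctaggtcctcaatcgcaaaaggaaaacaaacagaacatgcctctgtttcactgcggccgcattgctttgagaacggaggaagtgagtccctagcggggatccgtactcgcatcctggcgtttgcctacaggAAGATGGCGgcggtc
Sdhd (complex II, receptor letters read on the other strand), chr9:50603800-50604099: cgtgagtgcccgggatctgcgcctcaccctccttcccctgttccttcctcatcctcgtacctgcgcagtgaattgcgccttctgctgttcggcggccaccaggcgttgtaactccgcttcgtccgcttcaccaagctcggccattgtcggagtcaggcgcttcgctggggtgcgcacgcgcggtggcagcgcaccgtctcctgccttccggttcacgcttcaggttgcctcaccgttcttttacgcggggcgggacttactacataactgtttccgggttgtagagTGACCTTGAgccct

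The mitochondrial genes overlap, which bears on how far their values are separate. The last 43 bases of mt-Atp8 (chrM:7927-7969, plus strand) are also the first 43 of mt-Atp6, so reads from this stretch fit both genes; the start codon of mt-Atp6 is in capitals.
mt-Atp8 and mt-Atp6, shared stretch: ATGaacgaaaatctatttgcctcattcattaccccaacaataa
mt-Nd4l and mt-Nd4 share 7 bases (chrM:10167-10173), and mt-Atp6 and mt-Co3 share 1.

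Copies elsewhere in the genome also limit the values. Cut into stretches of 31 bases, 33 pseudogenes that are not members had at least 50% of their sequence inside a member, 7 of them copies of mitochondrial members on chromosome 1. Gm29216 holds a copy of mt-Co1 and took 53.5% of the mean summed value of both, and Gm28438, a copy of mt-Nd3, took 43.4%. The copies Gm28437, Gm28439 and Gm10222 of mt-Co3, mt-Nd4 and mt-Nd4l took 0.00339%, 0 and 0. Of the nuclear members, Atp5g2 shared most with a copy: Gm10175 took 92.0% of their summed value, and Gm12338 took 57.6% of the sum with Cox7c. Ndufb4c is annotated as a processed pseudogene that lies wholly within the sequence of Ndufb4, and its mean values were 72.0 in marrow and 190.5 in spleen beside 16.8 and 40.4 for Ndufb4. The sources used here do not say how reads were divided among such copies. Summing members with the 33 copies outside the list ended no call of a named member. Ndufb4 and Ndufb4c are both members, and this pair was not summed.

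Of the 91 nuclear members, 80 had a mean value of at least 10 over all libraries, 4 lay between 1 and 10, and 7 under 1. Cox8c was listed at 0 in every library, and Cox7b2, Cox6c2, Ndufa11b and Ndufs6b in 36 of 37. Genes were tested when 3 marrow or 2 spleen libraries, the size of the smallest group, reached a value of 1; this kept 82 of 91 nuclear and 13 of 13 mitochondrial members in marrow, and 85 and 13 in spleen. The sources used here do not say whether the values are corrected for transcript length. Levels of different genes are therefore not ranked. The mitochondrial members took 3.45 to 4.36% of all values in marrow controls and 5.03 to 8.58% in spleen controls, and the 91 nuclear members together 0.892 to 0.970% and 1.24 to 1.43%.

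In spleen, 5 libraries stood apart before any test: D6, D7, D9 and D10 after 10 defeats and D2 of the rested group. Their summed values were 1539150 to 2652290, against 657918 to 1015790 in the other 13 spleen libraries and 763386 to 1073110 in marrow. Haemoglobin genes made up 45.4 to 58.8% of their values, against 10.6 to 23.1% in spleen controls. Each library's log2 deviation from the mean of all spleen libraries was also set against transcript length. The slope was -0.177 to -0.249 in these 5 and 0.0288 to 0.161 in controls. Such slopes are relative to a mean that includes the 5 libraries. The counts of spleen members called, and the values of most members named after 10 defeats, are therefore also given without these libraries. Markers of other cells moved too: all 15 erythroid markers were detected in each spleen group of controls and 10 defeats, with summed values of 88827 to 204496 and 79862 to 1242080, and the 11 mature neutrophil markers summed to 232 to 485 and 1283 to 90158. The 7 B cell markers summed to 2045 to 2169 in spleen controls and 346 to 1544 after 10 defeats. In marrow the erythroid sum was 348348 to 450815 in controls and 118393 to 280909 after 10 defeats, and the neutrophil sum 58953 to 68237 and 141308 to 266092. What part these shifts have in the results below was not tested. The organ labels held: early granule markers summed to 1401 to 1708 in marrow controls and 5.33 to 14 in spleen controls.

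The balance of both genomes was read per library as the mean log2 value of the 13 mitochondrial members minus that of the 82 nuclear members above 0 in all libraries. In spleen this log2 ratio was 5.41, 5.21, 4.53 and 5.17 in controls, and 3.41 in D5, 1.30 in D6, 2.18 in D7, 3.81 in D4, -0.36 in D9 and 1.92 in D10 after 10 defeats. All 6 libraries of 10 defeats lay below all 4 controls. The means differed by -3.04, an 8.20-fold lower ratio, made up of a mitochondrial mean that fell by 2.16 and a nuclear mean higher by 0.88. Without the libraries of high total the difference was -1.47, or 2.77-fold, and D4 and D5 still lay below every control.

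After 1 defeat the spleen ratio went the other way, with 6.09 and 6.01 in the 2 libraries, both above every control, a difference of 0.97. After 4 defeats it was 4.59 and 4.24, which overlapped the controls. Rested spleens had 3.63 in D1, 2.08 in D2, 4.04 in D3 and 4.51 in D8, all below the controls, with a difference of -1.52 that became -1.02 without D2. Marrow moved less: the ratio was 4.43, 4.71 and 4.73 in controls, 3.91, 4.41 and 3.83 after 4 defeats, 4.77, 5.0, 4.80, 4.85 and 4.55 after 10 defeats and 4.39, 4.44, 4.39 and 4.29 in the rested group. The 4-defeat libraries lay below all controls (-0.57) and the rested ones below all 10-defeat ones (-0.42), while 10 defeats and controls overlapped (0.17). These ratios are means over members and were given no test.

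**Figure D1:**
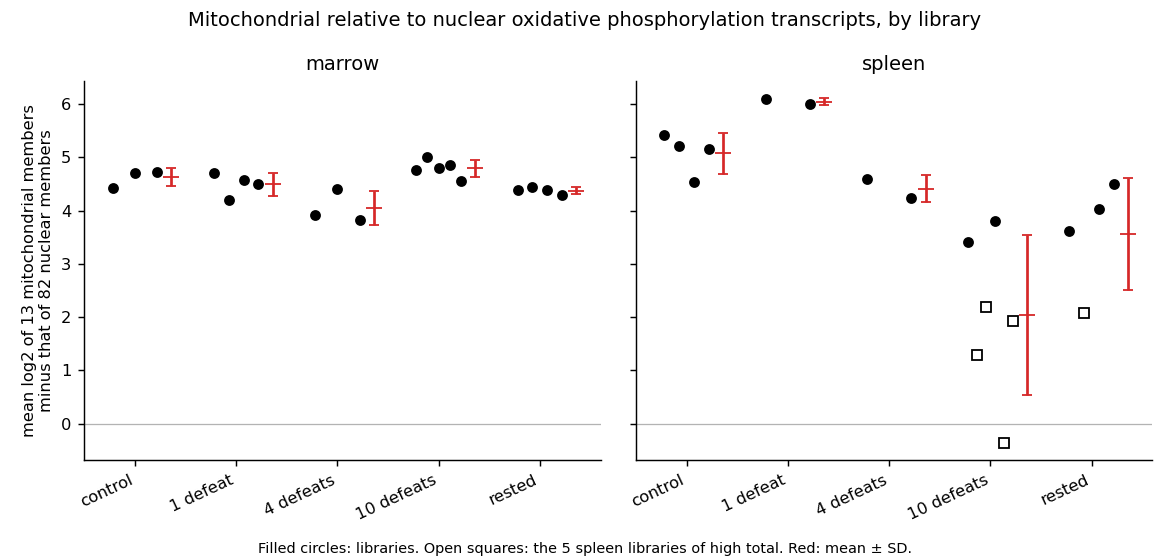
Mean log2 value of the 13 mitochondrial members minus that of 82 nuclear members (vertical axis, log2 units) for each library, by group, in marrow (left) and spleen (right); the red mark is the group mean with its SD. Marrow libraries lie between 3.83 and 5.0, whereas spleen libraries after 10 defeats lie between -0.36 and 3.81, below all spleen controls.

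In marrow, 10 defeats came with higher mitochondrial messengers. Of the 13 mitochondrial members 9 rose and none fell (limma on log2(value + 1), adjusted p below the threshold of 0.05), where 17.5% of the 12442 genes tested rose and 28.3% fell (45.8% in either direction); their median log2 fold change was 0.47 against -0.13 over all genes. The direction depends on the scaling: with quantile normalization none of the 13 rose and 1, mt-Co1, fell. Its copy Gm29216 rose on the deposited scale (1.12 ± 0.22, adjusted p = 0.00108 by limma). Gm29216 took 52.3, 50.8 and 46.8% of the value summed with mt-Co1 in controls. After 10 defeats it took 53.8, 65.3, 61.7, 60.3 and 64.9%. The sum of this pair was not tested with quantile normalization. Values here and below are the deposited ones, and ± after a log2 fold change is its standard error. Whether groups overlap is given for named genes as a description only. No share over all genes stands beside it, and genes picked for a large change or a low p overlap less often.

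mt-Co3, a core subunit of complex IV, had values of 4373, 4798 and 4634 in controls and 6489, 10229, 7377, 8691 and 6786 after 10 defeats. The groups did not overlap, and the log2 fold change was 0.76 ± 0.15, adjusted p = 0.00108. mt-Co2 receives electrons from cytochrome c. It went from 6014, 6743 and 6219 to 8622, 13059, 9667, 12161 and 10258 (0.75 ± 0.16, adjusted p = 0.00151), again without overlap. mt-Nd6, the only member encoded on the other strand of the mitochondrial genome, had 1309.9, 1486 and 1409 and 1849, 2998, 2218, 2533 and 1985 (0.70 ± 0.18, adjusted p = 0.00437). mt-Nd3, a small hydrophobic subunit of complex I, showed the largest change, from 605, 586 and 474 to 823, 1946, 1366, 1115 and 1149 (1.15 ± 0.34, adjusted p = 0.0122). Summed with its copy Gm28438 the change of mt-Nd3 was 0.83 ± 0.19, adjusted p = 0.00221.

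The other members that rose in marrow after 10 defeats were mt-Cytb, the core of complex III (0.48 ± 0.14, adjusted p = 0.00917), mt-Atp6, which forms the proton channel of complex V (0.68 ± 0.19, adjusted p = 0.00952), and mt-Nd1 (0.45 ± 0.14, adjusted p = 0.0145), mt-Nd4 (0.43 ± 0.14, adjusted p = 0.0184) and mt-Co1 (0.46 ± 0.15, adjusted p = 0.02). mt-Nd2 (0.34 ± 0.14, adjusted p = 0.0607), mt-Nd4l (0.15 ± 0.22, adjusted p = 0.596), mt-Nd5 (0.24 ± 0.20, adjusted p = 0.356) and mt-Atp8 (0.47 ± 0.23, adjusted p = 0.105) were not called. Without control C1, mt-Nd1, mt-Nd4 and mt-Co1 were no longer called (adjusted p = 0.0720, 0.0900 and 0.0803), and without control C4 mt-Nd3 was not (0.0572). Under quantile normalization mt-Nd4, mt-Co2, mt-Co3 and mt-Atp6 had fold changes of -0.02, -0.06, -0.12 and -0.09 and mt-Co1 of -0.48.

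Nuclear members rose in marrow as well. Of 82 tested, 53 were higher after 10 defeats and 1 was lower, and their median fold change was 0.39. Over all 12442 genes tested 2177 rose and 3517 fell, with a median of -0.13. With quantile normalization, under which 22.2% of all genes rose and 18.5% fell, 30 nuclear members rose and 2 fell. By complex, 25 of 38 rose in complex I, 2 of 4 in complex II, 4 of 8 in complex III, 11 of 15 in complex IV and 11 of 17 in complex V, with medians of 0.43, 0.21, 0.20, 0.46 and 0.36. Ndufb3, an accessory subunit of the membrane arm of complex I, changed most: its values were 44.5, 44.5 and 42.7 in controls and 68.4, 103, 90.6, 96.8 and 89.0 after 10 defeats (1.00 ± 0.11, adjusted p = 6.33e-05), every defeated library above every control. Ndufa3, another accessory subunit, went from 160.0, 169.8 and 147 to 209, 335, 266, 346 and 341 (0.88 ± 0.16, adjusted p = 5.62e-04), and Cox5a of complex IV from 141, 128 and 134 to 171, 315, 228, 299 and 250.2 (0.88 ± 0.17, adjusted p = 0.00109), both without overlap.

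The lowest p of the other complexes belonged to Sdhd, a membrane anchor of succinate dehydrogenase (0.37 ± 0.09, adjusted p = 0.00353), Uqcrb of complex III (0.60 ± 0.15, adjusted p = 0.00358), Cox4i1, the common form of a regulatory subunit of complex IV (0.62 ± 0.11, adjusted p = 4.05e-04), and Atp5pb, part of the peripheral stalk of complex V (0.74 ± 0.14, adjusted p = 6.81e-04). In complex II, Sdhb, the iron-sulphur subunit, rose (0.29 ± 0.07, adjusted p = 0.00599), whereas Sdha, which binds FAD and succinate, had 66.6, 66.8 and 66.3 in controls and 62.3, 61.3, 60.0, 70.7 and 65.1 after 10 defeats (-0.06 ± 0.07, adjusted p = 0.484), and Sdhc was not called (0.13 ± 0.11, adjusted p = 0.35). The single member that fell was Cox6a2, the form of Cox6a known from heart and skeletal muscle, with values of 11.7, 11.4 and 9.99 and then 6.02, 4.64, 9.08, 8.37 and 9.05 (-0.55 ± 0.20, adjusted p = 0.0366). That call was lost when any 1 of C1, C2, C4, D5 or D6 was left out (adjusted p = 0.0607 to 0.103). The common form Cox6a1 was not called (0.21 ± 0.12, adjusted p = 0.154).

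Fewer defeats moved fewer members in marrow. After 1 defeat none of the 95 members tested was called, where 0.00804% of all genes fell and none rose. An unadjusted p below 0.05 was found for 2 nuclear members and no mitochondrial one, and for 535 of the 12442 genes tested. After 4 defeats 21 nuclear members rose and none fell, and 2 mitochondrial members fell and none rose, where 7.07% of all genes rose and 13% fell. The largest rises were in 3 subunits of complex I, each without overlap. Ndufv3 rose from 90.7, 85.3 and 73.3 in controls to 123, 173 and 137 (0.78 ± 0.15, adjusted p = 0.00391). Ndufb3 reached 63.9, 69.0 and 66.4 (0.59 ± 0.13, adjusted p = 0.00668). Ndufs4 rose from 61.0, 55.6 and 53.4 to 75.6, 94.7 and 84.9 (0.57 ± 0.15, adjusted p = 0.0155).

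After 4 defeats mt-Nd2 fell from 792, 926 and 905 in controls to 615, 772 and 496 (-0.50 ± 0.16, adjusted p = 0.0392). mt-Nd4l fell from 1165, 1362 and 1547 to 543, 994 and 869 (-0.79 ± 0.24, adjusted p = 0.0298). Neither gene overlapped between the groups, but both calls were lost without C2, C4, D11 or D14, with adjusted p of 0.0509 to 0.169. The number of calls also depended on single libraries: 3 members were called without C4, 5 without C2, 8 without D14 and 10 without D12, against 23. Ndufs4 also lost its call without C2, C4 or D12 (adjusted p = 0.0512, 0.0694 and 0.0801), and Ndufv3 and Ndufb3 kept theirs. In D14 the copy Gm10925 was listed at 1495 beside 3076 for mt-Atp6, and it took 1.21% of both on average over all libraries. With every library rescaled to equal nuclear members, 8 of the 13 mitochondrial members fell after 4 defeats, where 31.2% of all genes did. With quantile normalization 6 mitochondrial members fell and 8 nuclear members rose, where 6.73% of all genes fell and 9.06% rose. With median-ratio rescaling no mitochondrial member fell and 44 nuclear members rose, where 1498 of 12442 genes rose and 1030 fell. With libraries rescaled to equal totals no mitochondrial member fell either, and 15 nuclear members rose, where 452 genes rose and 668 fell.

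After the week of rest no member differed from marrow controls by limma, and no gene of the whole table was called. An unadjusted p below 0.05 was found for 4 nuclear and no mitochondrial members, and for 1768 of the 12442 genes tested. Against 10 defeats, 10 mitochondrial and 37 nuclear members were lower in the rested group and none was higher, where 7.91% of all genes were lower and 13.8% higher. This comparison and that of 10 defeats with controls use the same 10-defeat libraries. mt-Co2 was at 5145, 5173, 6262 and 6783 in rested marrow (-0.87 ± 0.15, adjusted p = 0.00168), mt-Nd6 at 1115, 1088, 1358 and 1488 (-0.87 ± 0.16, adjusted p = 0.00277) and mt-Co3 at 4129, 4454, 4607 and 4713 (-0.80 ± 0.14, adjusted p = 0.00193), all 3 below every 10-defeat library. Ndufb4 (-0.73 ± 0.18, adjusted p = 0.0106), Ndufb3 (-0.65 ± 0.10, adjusted p = 0.0014) and Ndufa3 (-0.63 ± 0.15, adjusted p = 0.00872) fell most among nuclear members, and of these 3 only Ndufb3 did so without overlap. Ndufb4c, whose sequence lies within Ndufb4, had 68.9, 82.9, 74.7, 72.4 and 66.8 after 10 defeats. In the rested group it had 67.1, 67.0, 70.1 and 88.0. Its sum with Ndufb4, which holds the smaller part of their values, was not tested. The number of members called was 18 without rested D2 and 26 without D6 of the 10-defeat group, against 47, and 11 with quantile normalization (15.8% of genes, 6.97% higher). With quantile normalization 1 of the 11 was mitochondrial. With libraries rescaled to equal totals 7 mitochondrial members were lower and none higher. Of the nuclear members 4 were then higher and 5 lower, where 24.4% and 1.67% of genes were.

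In spleen, mitochondrial messengers were lower after 10 defeats. Of the 13 mitochondrial members 12 fell and none rose, where 41.9% of 13945 genes fell and 16.8% rose; their median log2 fold change was -2.26 against -0.36 over all genes. Without the 5 libraries of high total 10 fell, all of them among the 12, where 15.2% of genes fell, and the median was -1.20. With every library rescaled to equal nuclear members 13 of 13 fell, where 65.5% of genes did. With quantile normalization 11 fell, where 27% of genes did.

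mt-Nd4, a proton-pumping subunit of complex I, had values of 2893, 2528, 1498 and 1819.6 in controls and 539 in D5, 147 in D6, 279 in D7, 651 in D4, 35.0 in D9 and 277 in D10 after 10 defeats. The lowest control lay above the highest defeated library, and the log2 fold change was -3.20 ± 0.65, adjusted p = 0.00118, or -1.83 ± 0.27, adjusted p = 0.00202 from D4 and D5 alone. mt-Nd6 fell by a like amount, from 3278, 3045, 2473 and 2087 to 532 in D5, 248 in D6, 445 in D7, 671 in D4, 68.2 in D9 and 365 in D10 (-3.08 ± 0.48, adjusted p = 2.77e-04, and -2.16 ± 0.28, adjusted p = 0.0015 without the 5 libraries). mt-Co1, the catalytic subunit of complex IV, went from 9817, 8939.7, 7270.1 and 8084 to 3539.7 in D5, 2538 in D6, 2656 in D7, 3856 in D4, 886 in D9 and 2705 in D10 (-1.79 ± 0.37, adjusted p = 0.00148, and -1.20 ± 0.22, adjusted p = 0.00474 without them). Every 10-defeat library lay below every control for these 3 genes, and D9 was lowest each time.

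The fall was uneven along the mitochondrial genome. It was largest for mt-Nd4, mt-Nd4l (-3.13 ± 0.78, adjusted p = 0.00388), mt-Nd5 (-3.09 ± 0.62, adjusted p = 0.00114) and mt-Nd6, which are neighbours, and smaller for mt-Cytb (-2.57 ± 0.57, adjusted p = 0.00199), mt-Nd2 (-2.37 ± 0.54, adjusted p = 0.00245), mt-Nd1 (-2.26 ± 0.59, adjusted p = 0.00512), mt-Co2 (-2.09 ± 0.51, adjusted p = 0.00323), mt-Co1, mt-Atp8 (-1.62 ± 0.56, adjusted p = 0.0215) and mt-Atp6 (-1.58 ± 0.48, adjusted p = 0.0111). mt-Co3 had 8764, 9782, 6297 and 5763 in controls and 4059.8 in D5, 5380.0 in D6, 4983 in D7, 4721 in D4, 1138 in D9 and 5417 in D10 after 10 defeats (-0.96 ± 0.40, adjusted p = 0.0496). mt-Nd3 was the member not called (-0.25 ± 0.55, adjusted p = 0.701): its controls were 1037, 1679, 1089 and 991, and 772 in D5, 2252 in D6, 1841 in D7, 937 in D4, 186 in D9 and 1611 in D10 followed. D6 and D7 lay above all controls for mt-Nd3, and D5, D4 and D9 below all of them. mt-Co3 lost its call without any 1 of C1, C2, C3, C4, D5, D7 or D9 (adjusted p = 0.0517 to 0.127) and mt-Atp8 without C1 or C2 (0.0592 and 0.0543). The 2 remaining libraries of 10 defeats, D4 and D5, still lay lower for mt-Nd5 (-1.77 ± 0.34, adjusted p = 0.00606), mt-Nd4l (-1.44 ± 0.38, adjusted p = 0.0212) and mt-Cytb (-1.42 ± 0.26, adjusted p = 0.00485). The same held for mt-Nd2 (-1.22 ± 0.25, adjusted p = 0.00758), mt-Co2 (-1.18 ± 0.22, adjusted p = 0.00514), mt-Nd1 (-1.07 ± 0.24, adjusted p = 0.0107) and mt-Co3 (-0.77 ± 0.25, adjusted p = 0.045). Without the 5 libraries mt-Nd3 (-0.46 ± 0.25, adjusted p = 0.183), mt-Atp6 (-0.74 ± 0.26, adjusted p = 0.0563) and mt-Atp8 (-0.46 ± 0.30, adjusted p = 0.264) were not called.

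The ratio of mt-Co3 to mt-Nd4, 2 genes picked after their values had been seen, shows this spread within a library. The fold was 3.03, 3.87, 4.2 and 3.17 in spleen controls and 7.53 in D5, 36.5 in D6, 17.9 in D7, 7.25 in D4, 32.5 in D9 and 19.5 in D10 after 10 defeats. It was 8.59 in D1, 61.2 in D2, 5.61 in D3 and 7.22 in D8 in rested spleens. The 5 libraries of high total had the 5 highest folds, and every 10-defeat and rested library lay above every control. In marrow the fold was 3.63, 3.41 and 3.26 in controls and 3.96, 4.90, 4.52, 4.07 and 4.22 after 10 defeats.

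**Figure D2:**
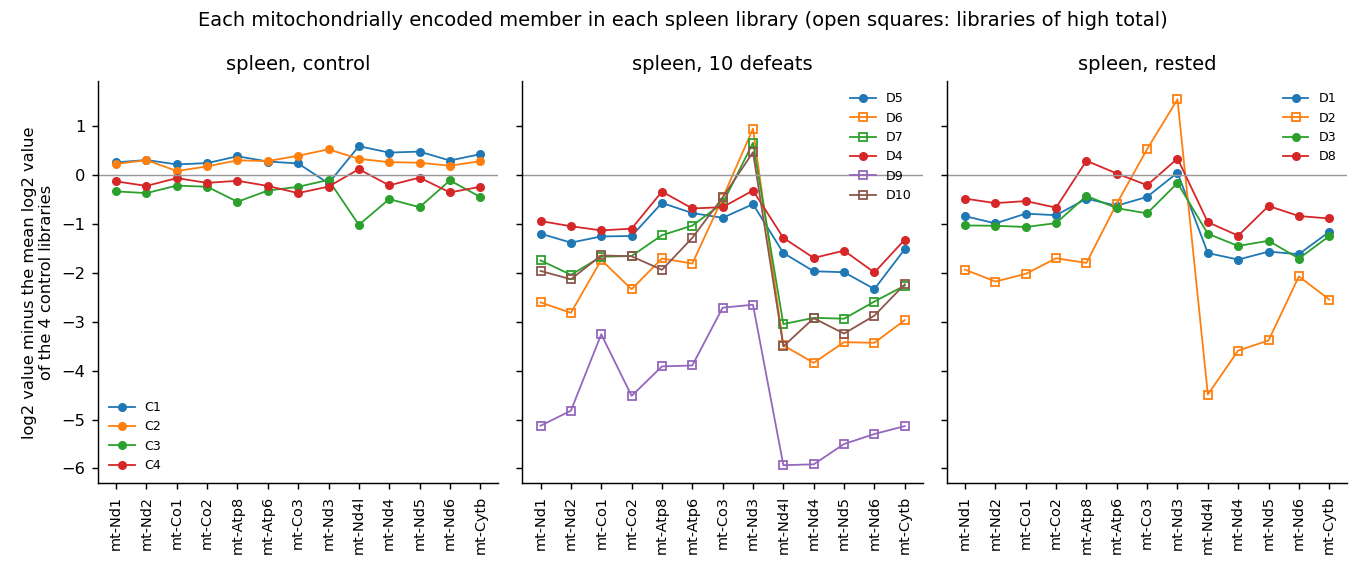
Log2 value of each of the 13 mitochondrial members, in genome order, minus the mean log2 value of the 4 controls, for spleen controls, 10 defeats and the rested group; each line is a library and open squares are the 5 libraries of high total. Libraries of high total rise towards mt-Co3 and mt-Nd3 and drop at mt-Nd4l, whereas D4 and D5 lie between -2.33 and -0.32 throughout.

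**Figure D3:**
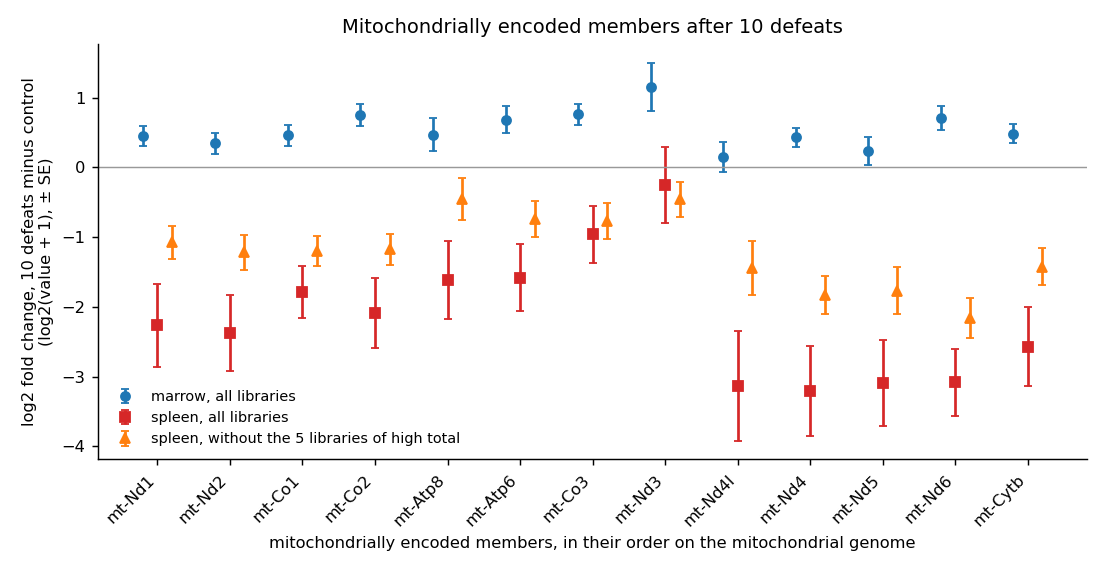
Log2 fold change of 10 defeats against controls with its standard error (vertical axis) for each mitochondrial member, in genome order, in marrow, in spleen, and in spleen without the 5 libraries of high total. Marrow values lie between 0.15 and 1.15 and spleen values between -3.20 and -0.25; with quantile normalization the marrow median is -0.08.

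Nuclear members moved the other way in spleen. Of 85 tested, 56 rose after 10 defeats and 2 fell, with a median of 0.88. Over all 13945 genes tested 2348 rose and 5848 fell, with a median of -0.36. With the 5 libraries of high total left out, 17 nuclear members rose and 1 fell, where 1172 genes (8.59%) rose and 2071 fell. Of these 17, 15 were among the 56. The median of the nuclear members was then 0.26, against -0.22 over all genes. With libraries rescaled to equal totals, 20 rose and 3 fell, where 5.85% of genes rose and 50.9% fell. By complex, 26 of 38 rose in complex I, 3 of 4 in complex II, 6 of 8 in complex III, 11 of 18 in complex IV and 10 of 17 in complex V, with medians of 0.92, 0.65, 0.85, 0.91 and 0.86. Without the 5 libraries the medians were 0.24, 0.31, 0.42, 0.16 and 0.33.

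The highest values lay in the libraries of high total. Ndufb9, an accessory subunit of complex I, had 98.4, 113, 123 and 76.1 in controls and 203 in D5, 954 in D6, 548 in D7, 143 in D4, 587 in D9 and 613 in D10 after 10 defeats (2.05 ± 0.49, adjusted p = 0.00304, and 0.75 ± 0.22, adjusted p = 0.0313 without those libraries). Ndufb8 of the same arm had 115, 145, 149 and 98.8 and 191 in D5, 1000.4 in D6, 505 in D7, 165 in D4, 572 in D9 and 559 in D10 (1.72 ± 0.51, adjusted p = 0.0101), and was not called without them (0.50 ± 0.25, adjusted p = 0.154). Both genes were higher in every defeated library than in every control. Ndufv1, which holds the NADH site of complex I, had a smaller and more even rise, from 40.7, 43.0, 50.6 and 43.0 to 83.1 in D5, 109 in D6, 103 in D7, 63.6 in D4, 72.3 in D9 and 78.9 in D10 (0.90 ± 0.16, adjusted p = 6.31e-04, and 0.71 ± 0.15, adjusted p = 0.00894 without them), with no overlap.

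Complex II split in spleen. Sdhd rose (67.2, 84.3, 82.1 and 63.9 in controls, 122 in D5, 409 in D6, 209 in D7, 114 in D4, 298 in D9 and 249 in D10 after 10 defeats; 1.5 ± 0.35, adjusted p = 0.00274, and 0.66 ± 0.19, adjusted p = 0.0299 without the 5 libraries), as did Sdhb (0.73 ± 0.25, adjusted p = 0.022) and Sdhc (0.56 ± 0.16, adjusted p = 0.00883, and 0.46 ± 0.15, adjusted p = 0.0443 without them). Sdha fell, from 83.7, 77.4, 69.2 and 82.5 to 65.6 in D5, 19.9 in D6, 23.3 in D7, 69.2 in D4, 16.5 in D9 and 21.2 in D10 (-1.34 ± 0.39, adjusted p = 0.00855), and its low values were those of the libraries of high total: D4 and D5 differed from controls by -0.21 ± 0.18, adjusted p = 0.396. Sdhb lost its call without control C4 (adjusted p = 0.0758) and without the 5 libraries (0.523). In complex III, Uqcr11 went from 132, 152, 188 and 121 to 289 in D5, 784 in D6, 608 in D7, 220.0 in D4, 496 in D9 and 607 in D10 (1.64 ± 0.38, adjusted p = 0.00246, and 0.78 ± 0.24, adjusted p = 0.0357 without them). In complex V, Atp5o of the stalk had 131, 130.5, 135 and 97.2 and 198 in D5, 460.4 in D6, 322 in D7, 172 in D4, 284 in D9 and 363 in D10 (1.21 ± 0.27, adjusted p = 0.00224, and 0.59 ± 0.18, adjusted p = 0.035 without them). Uqcr11 and Atp5o did not overlap between the groups. Uqcrh, the hinge protein of complex III, was not called in spleen (0.80 ± 0.43, adjusted p = 0.117, and -0.30 ± 0.23, adjusted p = 0.342 without the 5 libraries) and rose in marrow (0.47 ± 0.12, adjusted p = 0.00596). With libraries rescaled to equal nuclear members Sdhb and Sdhc had changes of -0.14 and -0.30, which are relative to the mean of the nuclear members.

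**Figure D4:**
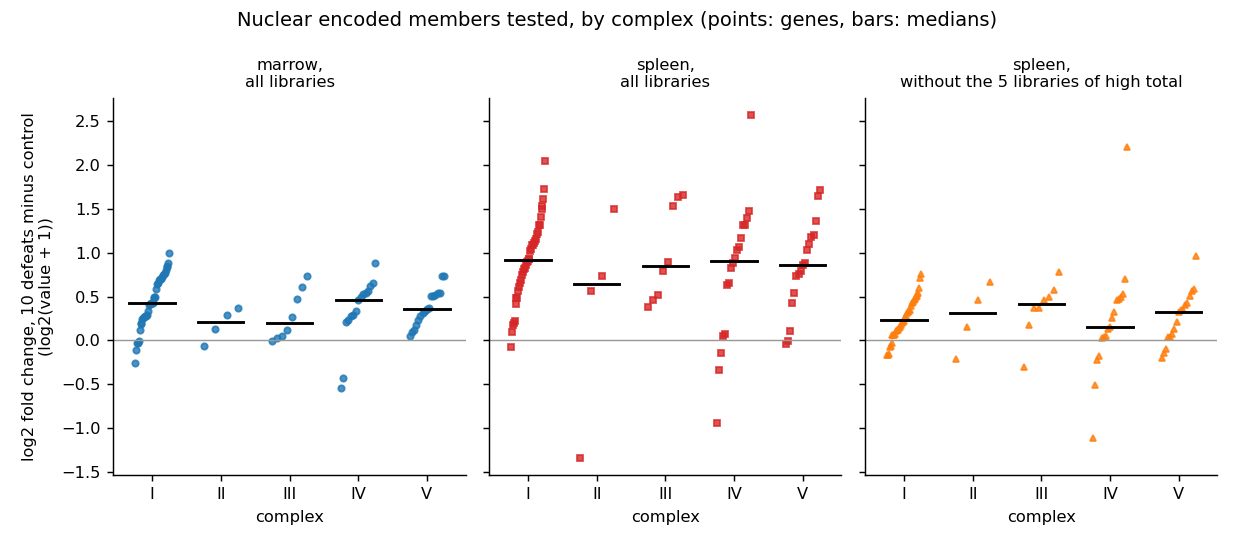
Log2 fold change of 10 defeats against controls (vertical axis) of each nuclear member tested, by complex, in marrow, in spleen, and in spleen without the 5 libraries of high total; black bars are medians. Medians of the 5 complexes lie between 0.20 and 0.46 in marrow and between 0.65 and 0.92 in spleen, on the deposited scale. In spleen without the 5 libraries they lie between 0.16 and 0.42. With libraries rescaled to equal nuclear members 12 nuclear spleen members would fall and 15 rise. That scaling sets the mean of the nuclear members equal in every library, so it cannot test whether they rose together.

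Among subunits with alternative forms, Cox6b2 moved most. Cox6b holds the complex IV dimer together, and Cox6b2 is the form best known from testis. In spleen its values were 7.82, 9.40, 18.7 and 10.4 in controls, 9.37 and 9.14 after 1 defeat, 13.5 and 28.1 after 4 defeats, 73.2 in D5, 98.4 in D6, 111 in D7, 40.0 in D4, 51.0 in D9 and 72.4 in D10 after 10 defeats and 32.6 in D1, 50.3 in D2, 32.7 in D3 and 21.7 in D8 in rested mice. Every 10-defeat and rested library lay above every control. The change was 2.57 ± 0.31, adjusted p = 6.25e-05 after 10 defeats and 1.5 ± 0.34, adjusted p = 0.0195 in the rested group, and 2.20 and 1.30 without the 5 libraries (adjusted p = 0.00333 and 0.021). The rested call was lost when C1, C2, C4 or D2 alone was left out (0.0632, 0.0646, 0.0679 and 0.0756). In marrow Cox6b2 had 54.1, 49.9 and 48.5 in controls and 56.6, 26.1, 46.0, 27.5 and 39.4 after 10 defeats (-0.43 ± 0.27, adjusted p = 0.2).

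The common form Cox6b1 had 284, 322, 305 and 225 in spleen controls and 363 in D5, 994 in D6, 534 in D7, 312 in D4, 540.3 in D9 and 599 in D10 after 10 defeats (0.88 ± 0.29, adjusted p = 0.0174), and was not called without the 5 libraries (0.26 ± 0.20, adjusted p = 0.344) or without control C4 (adjusted p = 0.0604). Cox6b2 reached 2.76, 2.92, 6.14 and 4.62% of the value of Cox6b1 in spleen controls and 20.2 in D5, 9.91 in D6, 20.8 in D7, 12.8 in D4, 9.44 in D9 and 12.1 in D10 after 10 defeats, against 23.3, 22.3 and 22.8% in marrow controls.

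**Figure D5:**
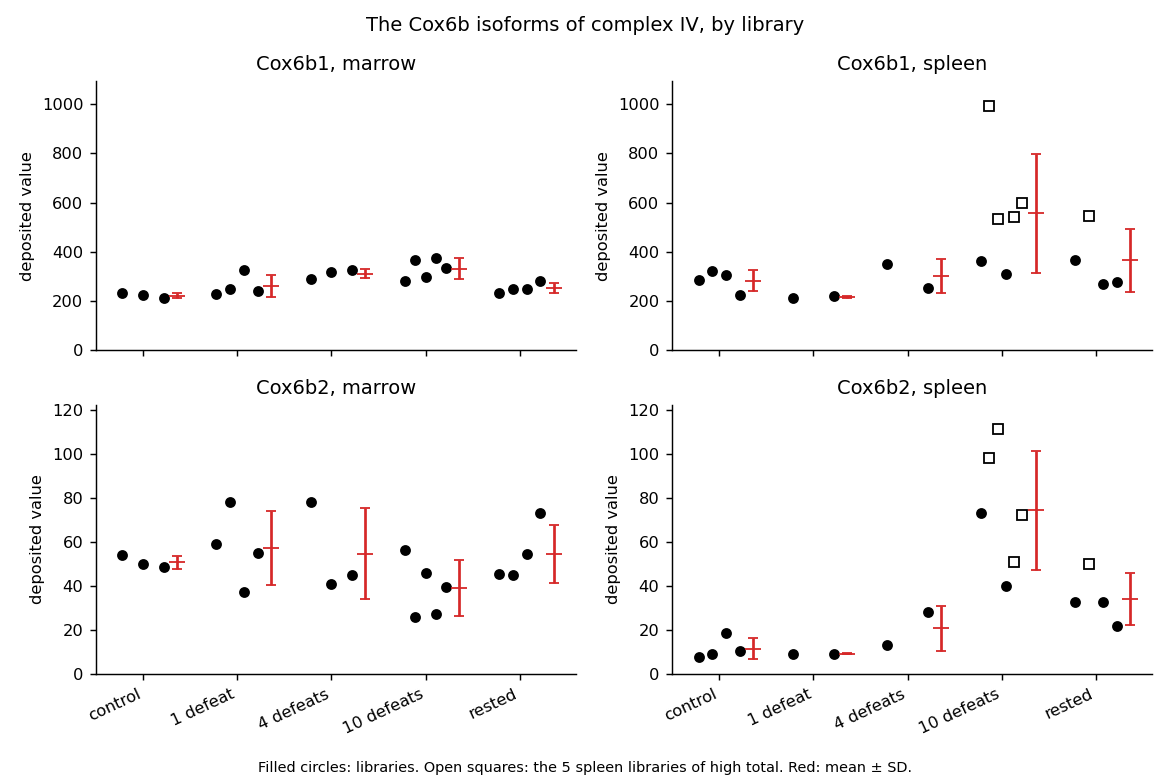
Deposited value of Cox6b1 (top) and Cox6b2 (bottom) in each marrow (left) and spleen (right) library by group, on a linear axis from 0; red marks are group means with SD. Spleen controls hold 7.82 to 18.7 of Cox6b2 and the 10-defeat libraries 40.0 to 111, while marrow controls hold 48.5 to 54.1.

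Other alternative forms moved less. Cox6a2 fell in spleen after 10 defeats (6.75, 7.69, 12.7 and 6.31 in controls and 2.43 in D5, 1.75 in D6, 5.01 in D7, 4.12 in D4, 3.56 in D9 and 7.06 in D10 after; -0.95 ± 0.30, adjusted p = 0.0137, and -1.11 ± 0.29, adjusted p = 0.0211 without the 5 libraries), with overlap through D10, and lost the call without control C3 (adjusted p = 0.0556). Cox6a1 rose (1.17 ± 0.28, adjusted p = 0.00339, and 0.70 ± 0.20, adjusted p = 0.0284 without the 5 libraries). Cox4i1 (1.32 ± 0.43, adjusted p = 0.0173) and Cox7a2 (1.39 ± 0.37, adjusted p = 0.00564) were called and Cox4i2, known from lung and for its response to low oxygen, was not (-0.14 ± 0.24, adjusted p = 0.623). Without the 5 libraries neither Cox4i1 (0.608) nor Cox7a2 (0.122) was called, and without C4 Cox4i1 was not (0.0585). Cox7a1 (0.82 ± 0.45, adjusted p = 0.127), Cox7a2l (0.04 ± 0.27, adjusted p = 0.895), Cox8b (0.08 ± 0.34, adjusted p = 0.853) and Ndufa4l2 (-0.33 ± 0.27, adjusted p = 0.299) were not called. The 3 genes for the same c subunit of complex V differed: Atp5g1 (0.79 ± 0.26, adjusted p = 0.017) and Atp5g3 (0.53 ± 0.20, adjusted p = 0.0344) were called and Atp5g2 was not (0.10 ± 0.21, adjusted p = 0.679), a contrast between genes that was not itself tested. Leaving the 5 libraries out gave 0.96 ± 0.20, adjusted p = 0.00803 for Atp5g1, 0.51 ± 0.16, adjusted p = 0.0418 for Atp5g3 and -0.10 ± 0.14, adjusted p = 0.605 for Atp5g2.

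After 1 and 4 defeats no spleen member was called with all libraries in the fit, where 0.688% and 0.043% of all genes were (0.624% higher and 0.0645% lower after 1 defeat). An unadjusted p below 0.05 was found for 9 nuclear members after 1 defeat and 2 after 4, beside 2104 and 1314 of the 13945 genes tested. The fit shares its spread over all spleen groups, and without the 5 libraries of high total 2 mitochondrial members were higher and 18 nuclear members lower after 1 defeat, where 8.61% of genes were higher and 4.23% lower. They included mt-Nd3 (1.34 ± 0.25, adjusted p = 0.0117). Its values were 3665 and 2408 against 1037, 1679, 1089 and 991 in controls. Others were mt-Atp8 (1.20 ± 0.30, adjusted p = 0.0268) with 19021 and 16996 against 10147, 9579, 5326 and 7171, and Atp5g1 (-1.12 ± 0.20, adjusted p = 0.011) with 63.4 and 53.4 against 128, 108, 164 and 117. None of these 3 overlapped. Both 1-defeat libraries also had haemoglobin shares of 1.82 and 2.19%. On GC content, their log2 deviations from the mean of all spleen libraries had slopes of -0.337 and -0.324, against -0.000672 to 0.245 in controls. What part these differences have was not tested. After 4 defeats mt-Nd6 was the single call without those libraries (-1.36 ± 0.28, adjusted p = 0.04), where 0.711% of all genes were lower and 1.08% higher.

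In rested spleens Cox6b2 was the only member called of 98, where 7.26% of all genes were called and 3.02% were higher. With those 5 libraries left out, 9 mitochondrial members were lower than in controls and none higher, where 11% of genes were lower, and 4 nuclear members were higher, where 5.51% of genes were, and 1 lower. mt-Nd4 had 636 in D1, 175 in D2, 771 in D3 and 892 in D8 (-1.48 ± 0.24, adjusted p = 0.00416 without D2), all below the lowest control, and mt-Nd6 871 in D1, 635 in D2, 819 in D3 and 1494 in D8 (-1.39 ± 0.25, adjusted p = 0.00659 without D2), likewise. Sdha was lower (-0.64 ± 0.16, adjusted p = 0.0211 without D2). Rested and 10-defeat spleens differed in no member by limma with or without these libraries, where 0.567% and 0.0366% of all genes were called. With all libraries 4 mitochondrial and 7 nuclear members had an unadjusted p below 0.05, beside 3081 of the 13945 genes tested. Without D4 of the 10-defeat group 7 members were called.

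Control spleen and control marrow differed in 8 nuclear members and in no mitochondrial one, 6 higher and 2 lower in spleen, where 27.1% and 19.2% of 14513 genes were (46.2% in all). Ndufa4l2, a relative of Ndufa4 known to be induced by low oxygen, had 2.50, 3.5, 4.25 and 4.53 in spleen and 0.376, 0.124 and 0.248 in marrow (1.89 ± 0.24, adjusted p = 1.41e-07). Cox7a2l, which takes part in joining complexes III and IV, had 355, 447, 353 and 256 and 143, 142 and 129 (1.32 ± 0.23, adjusted p = 1.6e-05), and Cox4i2 2.06, 2.05, 1.99 and 1.75 and 0.894, 0.745 and 0.790 (0.71 ± 0.22, adjusted p = 0.00967). Cox6b2 (-2.11 ± 0.34, adjusted p = 4.86e-06) and Ndufs1, the iron-sulphur subunit of complex I (-0.55 ± 0.17, adjusted p = 0.00668), were lower in spleen. None of these 5 overlapped between the organs. Without the 5 spleen libraries, which are no controls but add to the spread of the fit, 10 mitochondrial members and 28 nuclear ones were higher in spleen and 3 nuclear ones lower, where 34.4% and 24.6% of genes were.

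The effect of 10 defeats itself differed between the organs. For 12 of 13 mitochondrial members the change in spleen lay below that in marrow by an interaction term in limma, and for none above it, where 27% of all genes lay below and 16.1% above. The difference was largest for mt-Nd6 (-3.79 ± 0.55, adjusted p = 5.73e-06) and mt-Nd4 (-3.63 ± 0.72, adjusted p = 2.27e-04), and smallest among those called for mt-Co3 (-1.72 ± 0.45, adjusted p = 0.00298). Without the 5 libraries 12 members were called again, 11 of them the same, with mt-Nd6 at -2.87 ± 0.32, adjusted p = 1.29e-06 and mt-Nd4 at -2.26 ± 0.28, adjusted p = 3.10e-06. Of nuclear members 17 lay above and 1 below; without the 5 libraries 6 lay above and 13 below, where 14.3% and 17.8% of genes did, and with equal totals 5 lay above and 13 below (6.59% and 30.2% of genes). Cox6b2 (3.0 ± 0.43, adjusted p = 5.31e-06, and 2.63 ± 0.46, adjusted p = 1.52e-04 without those libraries), Ndufv1 (1.16 ± 0.19, adjusted p = 2.75e-05, and 0.96 ± 0.17, adjusted p = 1.63e-04) and Uqcr11 (1.59 ± 0.42, adjusted p = 0.00339, and 0.73 ± 0.25, adjusted p = 0.0254) lay above both times. Ndufb9 (1.81 ± 0.54, adjusted p = 0.00863) and Sdha (-1.28 ± 0.42, adjusted p = 0.016) were called with all libraries alone.

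Other genes of mitochondrial biology were read from lists. Among all genes tested, 16.8% rose and 41.9% fell in spleen after 10 defeats, 8.59% and 15.2% without the 5 libraries, and 17.5% rose and 28.3% fell in marrow. Of 79 mitochondrial ribosomal proteins, which translate the 13 mitochondrial messengers, 57 rose and none fell in spleen after 10 defeats, with a median of 0.76; 21 rose and none fell without the 5 libraries. In marrow 22 rose and 5 fell. Mrps22 (1.29 ± 0.17, adjusted p = 8.04e-05, and 1.03 ± 0.16, adjusted p = 0.00278 without the 5 libraries) had the lowest p in spleen and Mrpl33 (1.06 ± 0.14, adjusted p = 8.90e-05) in marrow. Of 45 assembly factors tested in spleen 18 rose and 4 fell (5 and 1 without the 5 libraries), and of 44 in marrow 9 rose and 3 fell; Cox17, a copper chaperone for complex IV, rose in both organs (1.90 ± 0.46, adjusted p = 0.00328 in spleen, 0.72 ± 0.22, adjusted p = 0.0371 there without the 5 libraries, 0.74 ± 0.16, adjusted p = 0.00154 in marrow).

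Of 32 genes that transcribe the mitochondrial genome or handle its RNA, 5 rose and 8 fell in spleen after 10 defeats (2 and 2 without the 5 libraries), and 3 rose and 9 fell in marrow. Over all genes the shares were 16.8% and 41.9% in spleen (8.59% and 15.2% without the 5 libraries) and 17.5% and 28.3% in marrow. Polrmt, the mitochondrial RNA polymerase, had 12.9, 13.8, 13.1 and 13.1 in spleen controls and 6.42 in D5, 3.45 in D6, 3.46 in D7, 7.85 in D4, 5.11 in D9 and 5.63 in D10 after 10 defeats, all below the controls (-1.21 ± 0.21, adjusted p = 4.36e-04, and -0.81 ± 0.17, adjusted p = 0.00915 without the 5 libraries). Tfam, which packs mitochondrial DNA and starts its transcription, fell in marrow (-0.42 ± 0.11, adjusted p = 0.00524). Mterf2 fell in marrow too (-1.17 ± 0.19, adjusted p = 2.72e-04), and Slirp, which stabilises mitochondrial messengers, rose (0.75 ± 0.19, adjusted p = 0.00508). Of 9 regulators of mitochondrial biogenesis tested in marrow 6 fell and none rose, Nrf1 among them (-0.31 ± 0.07, adjusted p = 0.00244). In spleen 10 were tested after 10 defeats: Sirt3 rose (1.35 ± 0.33, adjusted p = 0.00316) and Ppargc1b (-0.55 ± 0.18, adjusted p = 0.0171) and Gabpa (-0.60 ± 0.23, adjusted p = 0.0321) fell. None of these 3 was called without the 5 libraries, where 1 of the 10 rose and none fell.

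Of 21 genes of the tricarboxylic acid cycle and its entry, which include the 4 Sdh genes, 5 rose and 2 fell in spleen (4 and 0 without the 5 libraries) and 2 rose and 1 fell in marrow, beside the shares of all genes just given. Atpif1, an inhibitor of complex V known from erythroid cells, had 127, 167, 270.4 and 131 in spleen controls and 677 in D5, 3672 in D6, 2108 in D7, 377 in D4, 2504 in D9 and 1817 in D10 after 10 defeats, all above the controls (3.11 ± 0.55, adjusted p = 5.43e-04, and 1.6 ± 0.30, adjusted p = 0.0058 without the 5 libraries). Cycs, cytochrome c, rose in both organs (1.13 ± 0.29, adjusted p = 0.00414 in spleen, 0.57 ± 0.16, adjusted p = 0.00813 in marrow) but was not called in spleen without those libraries (0.43 ± 0.16, adjusted p = 0.0667). Ucp2, an inner membrane carrier of leukocytes, fell in marrow (-0.58 ± 0.11, adjusted p = 6.28e-04).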

How the data were processed

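Poly(A) RNA was sequenced from 19 marrow and 18 spleen libraries. The deposited table gives the authors' signal per gene for each library; the submitters' processing notes name kallisto 0.46.1, sleuth and GRCm38 without their roles, and the sources used here do not say how the signal was scaled. Library totals are unequal, read depth is unknown, and low values could not be read as whole reads for nearly all genes, so no count test was run. Gene identifiers matched GENCODE M21 for 35626 of 35885 (99.3%).

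Values were tested as log2(value + 1) with limma 3.58.1 in R 4.3.3 (trended, robust prior), 1 fit per organ and 1 over all libraries for organ comparisons, on genes that reached a value of 1 in 3 marrow or 2 spleen libraries. P-values were adjusted over all genes tested by Benjamini-Hochberg, with a threshold of 0.05. A fold change on this scale understates that of low genes. Members, gene lists and tests were chosen with earlier results of these data known. All mitochondrial members were named; nuclear members were named as the 3 called with the largest rise and fall in a comparison, the lowest p in each complex after 10 defeats, and alternative forms of subunits. Alternatives were other scalings, no filter, another pseudocount, summed copies, length and GC trends removed, fits of the compared groups alone, each library left out, and spleen without the 5 libraries of high total; the last, and those on copies and trends, were added after seeing the data. The NRF1 site was searched as a short core, chosen after a longer form of it had been searched. The fit was tested on simulated data. Tables were made with Python 3.11.15, pandas 2.3.3 and numpy 2.4.6, and plots with matplotlib 3.10.9. The labels do not tie replicates beyond calling them biological, so p-values measure the spread between these libraries.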

Additional observations from a re-analysis of the deposited data

Results flagged for a closer look

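In groups of 4 to 10 libraries, the highest or lowest library was compared with its group, and 14 of 258 such checks found a library standing far from the rest; chance alone flags about 1 group in 20, or 5%. After 10 defeats, spleen D9 had a mean log2 value of the mitochondrial members of 7.17, where the other 5 libraries had 9.40 to 10.60. Among marrow libraries of the 1 defeat group, the check found mt-Co2 at 8853 in D17 (others 6453 to 6567), Atp5pb at 191 in D17 (others 127 to 132) and Ndufs1 at 36 in D15 (others 29.6 to 30.6). Among spleen libraries of the rested group, the check found mt-Atp6 at 7146 in D8 (others 4375 to 4672), Ndufb4 at 104 in D2 (others 15.4 to 26.7), Ndufb9 at 607 in D2 (others 138 to 205) and Ndufb8 at 853 in D2 (others 128 to 251). Among spleen libraries of the 10 defeats group, the check found mt-Co3 at 1138 in D9 (others 4059.8 to 5417). Among spleen libraries of the control group, the check found mt-Nd3 at 1679 in C2 (others 991 to 1089), Ndufa3 at 224 in C3 (others 172 to 181) and Atp5o at 97.2 in C4 (others 130.5 to 135). Among marrow libraries of the 10 defeats group, the check found Ndufv3 at 181 in D6 (others 129.9 to 134) and Atp5o at 162 in D9 (others 132 to 140.1).

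The change after 10 defeats differed between spleen and marrow by an interaction term in limma for 19 members. They were counted among the mitochondrial members and the nuclear ones named for size of change, lowest p or mean value. The log2 change in spleen was below that in marrow for mt-Nd1 (-2.71), mt-Nd2 (-2.71), mt-Nd4 (-3.63), mt-Nd4l (-3.28), mt-Nd5 (-3.33), mt-Nd6 (-3.79), mt-Cytb (-3.05), mt-Co1 (-2.25), mt-Co2 (-2.84), mt-Co3 (-1.72), mt-Atp6 (-2.27) and mt-Atp8 (-2.09), and for the nuclear Sdha (-1.28). It was above that in marrow for Ndufb9 (1.81), Ndufv1 (1.16), Sdhd (1.13), Uqcr11 (1.59), Cox6b2 (3.0) and Atp5o (0.97). Cox6a1, named as an alternative form and not counted in the 19, was called above marrow too. Its difference was 0.96, adjusted p = 0.0158, by limma with the library code as a replicate block.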

How the results depend on the processing

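With quantile normalization, the number of members called was 14 (from 23) for 4 defeats in marrow, 33 (from 63) for 10 defeats in marrow, 11 (from 47) for rest against 10 defeats in marrow, 2 (from 0) for 1 defeat in spleen and 20 (from 8) for control spleen against control marrow, and the log2 ratio difference was -0.25 for 10 defeats in marrow and -0.0507 for rest against 10 defeats in marrow. Signs turned for 10 defeats in marrow: mt-Nd4 -0.0213, mt-Co1 -0.48, mt-Co2 -0.0629, mt-Co3 -0.12, mt-Atp6 -0.0905 and Cox8a -0.0847. Signs turned for rest against 10 defeats in marrow: mt-Co1 0.21. With median-ratio rescaling, the number of members called was 44 (from 23) for 4 defeats in marrow. With libraries rescaled to equal totals, the number of members called was 15 (from 23) for 4 defeats in marrow, 16 (from 47) for rest against 10 defeats in marrow, 35 (from 70) for 10 defeats in spleen, 0 (from 1) for rest against control in spleen and 43 (from 8) for control spleen against control marrow. Signs turned for 10 defeats in spleen: Cox8a -0.093, Atp5g3 -0.21, Sdhb -0.0121, Sdhc -0.18, Ndufa3 -0.00563, Cox5a -0.11 and Uqcrc1 -0.27. With libraries rescaled to equal nuclear members, the number of members called was 11 (from 23) for 4 defeats in marrow, 40 (from 63) for 10 defeats in marrow, 27 (from 47) for rest against 10 defeats in marrow, 40 (from 70) for 10 defeats in spleen and 0 (from 1) for rest against control in spleen. This scaling holds the mean of the nuclear members equal, so the signs of nuclear members are relative to that mean. Signs turned for 4 defeats in marrow: Sdhb -0.0103. Signs turned for 10 defeats in marrow: Cox7a2l -0.0351, Cox8a -0.0871, Atp5g3 -0.0157 and Sdhb -0.083. Signs turned for rest against 10 defeats in marrow: Sdhb 0.0234, Sdhd 0.0171 and Ndufb8 0.000937. Signs turned for 10 defeats in spleen: Cox8a -0.22, Atp5g1 -0.0791, Atp5g3 -0.34, Sdhb -0.14, Sdhc -0.30, Ndufa3 -0.13, Cox5a -0.24 and Uqcrc1 -0.40. With no filter on low values, the number of members called was 1 (from 0) for 1 defeat in spleen. Without the 5 spleen libraries of high total, the number of members called was 20 (from 0) for 1 defeat in spleen, 1 (from 0) for 4 defeats in spleen, 28 (from 70) for 10 defeats in spleen, 14 (from 1) for rest against control in spleen and 41 (from 8) for control spleen against control marrow, and the log2 ratio difference was -1.47 for 10 defeats in spleen. Signs turned for 10 defeats in spleen: Ndufs4 -0.0656. In fits of the 2 compared groups alone, the number of members called was 1 (from 0) for rest against control in marrow, 22 (from 0) for 1 defeat in spleen and 5 (from 1) for rest against control in spleen.

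With each library left out in turn, the number of members called ran from 21 to 44 for the difference between organs, 49 to 64 for 10 defeats in marrow, 0 to 0 for 1 defeat in marrow, 3 to 21 for 4 defeats in marrow, 18 to 55 for rest against 10 defeats in marrow, 0 to 0 for rest against control in marrow, 7 to 9 for control spleen against control marrow, 46 to 81 for 10 defeats in spleen, 0 to 0 for 1 defeat in spleen, 0 to 0 for 4 defeats in spleen, 0 to 7 for rest against 10 defeats in spleen and 0 to 1 for rest against control in spleen. The log2 ratio difference ran from 0.07 to 0.23 for 10 defeats in marrow, -0.23 to -0.03 for 1 defeat in marrow, -0.75 to -0.46 for 4 defeats in marrow, -0.48 to -0.36 for rest against 10 defeats in marrow, -0.34 to -0.19 for rest against control in marrow, 0.34 to 0.64 for control spleen against control marrow, -3.39 to -2.56 for 10 defeats in spleen, 0.79 to 1.08 for 1 defeat in spleen, -0.85 to -0.49 for 4 defeats in spleen, 1.04 to 2.01 for rest against 10 defeats in spleen and -1.83 to -1.02 for rest against control in spleen. Of 134 called pairs of a named member and a comparison, 50 lost the call in at least 1 of these fits and none turned its sign. With the library code as a replicate block, 8 members were called between control organs and 31 for the difference between organs; the correlation of libraries sharing a code was -0.204 to 0.350 over 15 codes, 5 of them above 0.1, so the codes were not taken as pairs. The causes of these shifts were not tested. Values are limited by 2 libraries in each of the 1-defeat and 4-defeat spleen groups, by depth that is not given as counts, and by scalings that move the median of all genes.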
